A study of Mus musculus with 12 samples.

Results

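The 8 genes Qtrt2, Slc16a6, Gosr1, Epb41l3, Ubac2, Cyb5d1, Sp3 and Txnrd3 were chosen because their array signal was higher in NFAT5-deficient than in wild-type cells when the difference was averaged over blood stem cells and multipotent progenitors. They are 8 of 19494 genes measured, and each had 1 probe set. None of the 8 passed correction in the comparison that chose them, so their differences are a description of these arrays.

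The arrays compared 4 groups of 3 samples of mouse marrow cells: NFAT5-deficient HSC, wild-type HSC, NFAT5-deficient MPP and wild-type MPP. NFAT5-deficient cells came from Nfat5 fl/fl Vav-Cre donors and wild-type cells from Nfat5 +/+ Vav-Cre donors, so both genotypes carried Cre driven by the blood-cell promoter Vav. Donor marrow (CD45.2) was transplanted into irradiated wild-type CD45.1 mice, and CD45.2+ cells were sorted 13 weeks later from lineage-negative Sca-1+Kit+ marrow as HSC (CD48-CD150+) or MPP (CD48+CD150-). From each sample, 300 pg of total RNA was amplified and hybridised to a single-colour array. Arrays are named by their sample number, 64, 70 and 76 for NFAT5-deficient and 66, 67 and 75 for wild-type cells. An HSC and an MPP array share each number, and the labels do not say whether they share an animal, so p-values measure only the spread between these arrays. In such bulk samples, fewer cells that express a gene and less RNA per cell cannot be told apart.

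NFAT5 is a Rel-family transcription factor best known for inducing transporters and enzymes that accumulate organic osmolytes when cells meet hypertonic stress. It binds a tonicity-responsive enhancer whose core resembles the site of the other NFAT factors. HSC renew themselves and restore all blood lineages after transplantation, and MPP lie downstream of them and divide more often. The 8 genes belong to no single pathway. Qtrt2 and Sp3 act on tRNA modification and transcription, Slc16a6, Gosr1 and Ubac2 on membrane transport and protein traffic, Epb41l3 on the membrane skeleton, and Cyb5d1 and Txnrd3 belong to redox protein families.

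The sorted populations carried their defining markers. Slamf1, which encodes CD150, averaged 10.08 ± 0.74 on the log2 intensity scale in NFAT5-deficient HSC and 6.46 ± 0.42 in NFAT5-deficient MPP (SD, n = 3 each). In wild-type cells it averaged 9.84 ± 0.24 in HSC and 6.26 ± 0.14 in MPP (SD, n = 3 each). Cd48 averaged 6.50 ± 0.88 in NFAT5-deficient HSC and 10.28 ± 0.15 in NFAT5-deficient MPP (SD, n = 3 each). In wild-type cells Cd48 averaged 6.48 ± 1.25 in HSC, where 1 array reached 7.85, and 9.92 ± 0.67 in MPP (SD, n = 3 each). Nfat5 itself read 8.76, 8.34 and 7.62 on NFAT5-deficient HSC arrays 64, 70 and 76, against 9.81, 9.38 and 9.27 on wild-type HSC arrays 66, 67 and 75. In MPP it read 7.63, 7.73 and 8.40 in NFAT5-deficient cells and 8.78, 8.85 and 8.12 in wild-type cells. Its groups were apart in HSC and overlapped in MPP. Averaged over both populations the Nfat5 difference was -0.96 (SE 0.25, limma adjusted p = 0.622), so the targeted gene was not called either. Whether its probe set covers the deleted exons is not stated in the labels.

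The 8 genes averaged over HSC and MPP differed by 0.71 to 3.19 log2 units between NFAT5-deficient and wild-type cells, with a median of 1.37. The median of all genes was -0.06. In this averaged comparison limma called 0 of 19494 genes (0%), the smallest adjusted p being 0.123, and 7.11% of genes (1386) lay below 0.05 before adjustment. Qtrt2 had the smallest unadjusted p among the 7360 genes that read higher (adjusted p = 0.249), Epb41l3 the second and Gosr1 the third (adjusted p = 0.279 for both). The other 5 members had an adjusted p of 0.605. Between Ubac2 and Cyb5d1 in this order lay Cd44, a hyaluronan receptor gene that is not among the 8, with a difference of 0.82 (SE 0.16). Last of the 8 in this order was Txnrd3 (0.71, SE 0.14). Next came Dcaf10, a substrate receptor gene of a ubiquitin ligase (1.33, SE 0.27), followed by Rnf113a1 (1.0), Ccrl2 (0.95), Trmt11 (0.98) and Rab6b (1.20). Each of these genes that are not members had an adjusted p of 0.605 by limma. The order by p favours genes with small spread, which also lowers the p-values of other comparisons of the same genes. Without wild-type HSC array 66, 2 genes were called in the averaged comparison, Car5b (-1.38) and Shank3 (-1.06), and neither is a member.

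**Figure D1:**
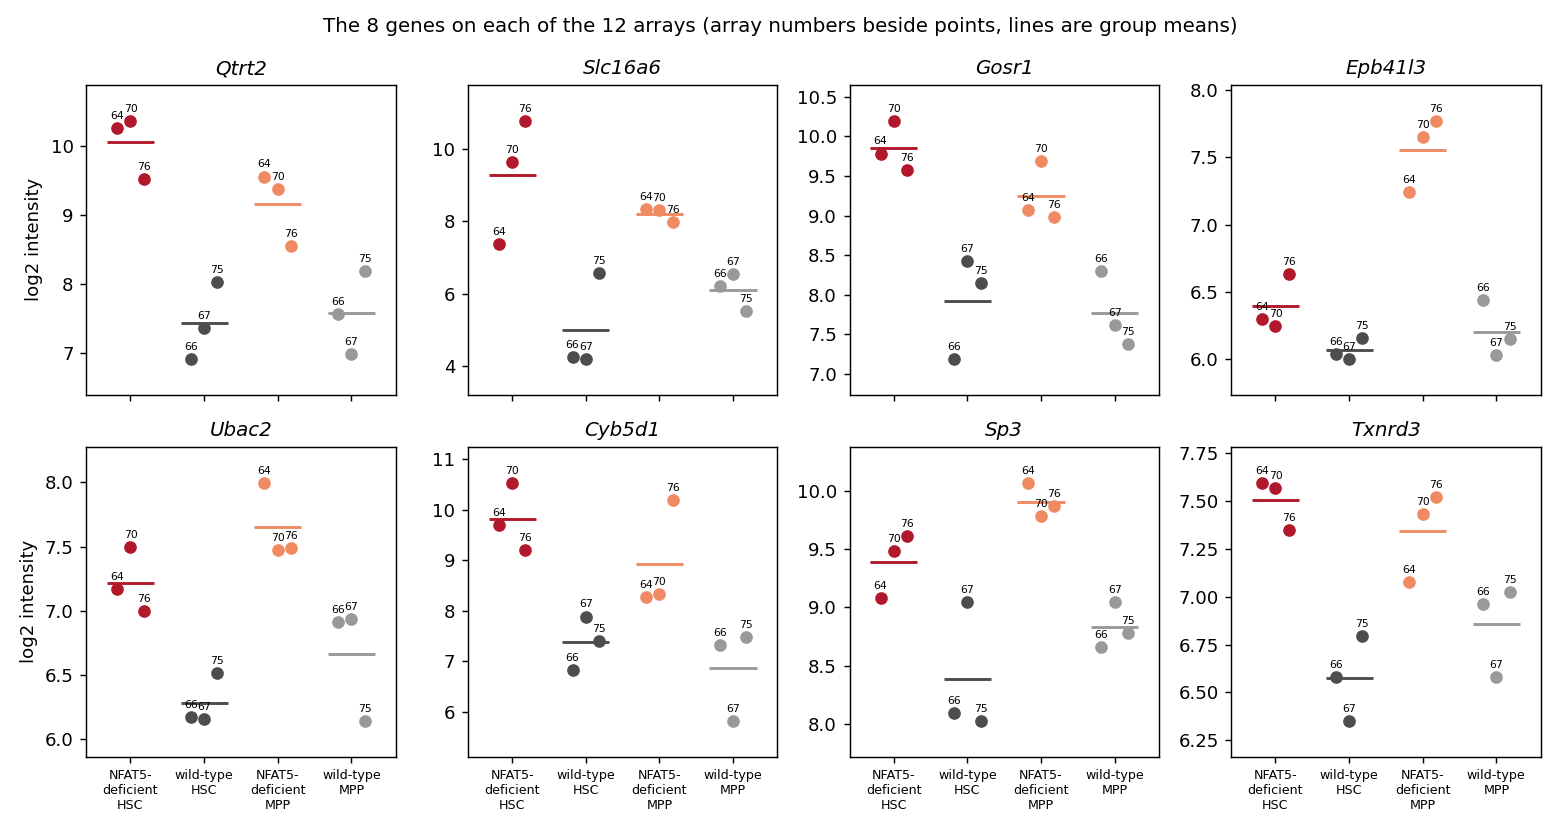
Log2 intensity (vertical axis) of each of the 8 genes on each of the 12 arrays, grouped by population and genotype; points are arrays with their numbers, and lines are group means of 3 arrays. Vertical axes differ between genes. In both populations each NFAT5-deficient point lies above each wild-type point for every gene; the genes were chosen for the difference averaged over both populations.

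By population, limma called 0 of 19494 genes in HSC (0%, with 6.18% or 1205 genes below 0.05 before adjustment) and 1 in MPP (0.00513%), none of them a member. In HSC the NFAT5-deficient and wild-type arrays did not overlap for any of the 8 genes, with the NFAT5-deficient arrays higher. Across all genes this held for 3.55%. In MPP it also held for all 8, against 3.8% of all genes. Both together held for 44 genes (0.226%), among them the 8. For 7 of the 8, every one of the 6 NFAT5-deficient arrays lay above every one of the 6 wild-type arrays (19 genes or 0.0975% overall). The exception was Epb41l3, for which the lowest NFAT5-deficient array (6.24, an HSC array) lay below the highest wild-type array (6.44, an MPP array). Because the genes were chosen on the averaged difference of the same arrays, nothing is read from these counts.

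Sequences before the transcription start are shown for Qtrt2 and Gosr1, 2 of the 3 members with the smallest p, and for a start of Epb41l3 and a start of Sp3 that hold the motifs searched. RefSeq (GRCm38.p6) gave promoter windows of 300 bases, 250 before and 50 after a start, for 6 of the 8 genes and 9 starts in all, 3 of them for Epb41l3 and 2 for Sp3. Slc16a6 and Cyb5d1 are named only. The windows are written 5′ to 3′ on the gene's strand, with TGGAAA (the core of the NFAT5 element) and GGGCGG (the GC box bound by Sp3 and its relatives) in capitals, on either strand.
Qtrt2, chr16:43889627-43889926, minus strand: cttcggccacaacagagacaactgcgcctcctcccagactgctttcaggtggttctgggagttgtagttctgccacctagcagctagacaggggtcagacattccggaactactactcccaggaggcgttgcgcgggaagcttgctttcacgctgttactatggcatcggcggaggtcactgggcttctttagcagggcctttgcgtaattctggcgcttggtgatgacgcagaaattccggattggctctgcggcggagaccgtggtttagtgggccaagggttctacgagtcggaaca
Gosr1, chr11:76763529-76763828, minus strand: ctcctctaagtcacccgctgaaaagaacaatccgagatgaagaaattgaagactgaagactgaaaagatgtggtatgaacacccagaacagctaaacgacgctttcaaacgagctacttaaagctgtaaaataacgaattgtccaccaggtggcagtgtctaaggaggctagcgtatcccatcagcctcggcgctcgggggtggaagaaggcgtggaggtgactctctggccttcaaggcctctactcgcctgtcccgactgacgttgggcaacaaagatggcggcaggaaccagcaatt
Epb41l3, chr17:69159106-69159405, plus strand: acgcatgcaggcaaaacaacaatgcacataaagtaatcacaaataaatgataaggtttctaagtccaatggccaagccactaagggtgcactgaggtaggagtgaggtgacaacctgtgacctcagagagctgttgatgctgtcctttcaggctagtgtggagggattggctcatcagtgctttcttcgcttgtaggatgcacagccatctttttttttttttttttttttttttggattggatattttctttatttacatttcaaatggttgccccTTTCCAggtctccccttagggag
Sp3, chr2:72980397-72980696, minus strand: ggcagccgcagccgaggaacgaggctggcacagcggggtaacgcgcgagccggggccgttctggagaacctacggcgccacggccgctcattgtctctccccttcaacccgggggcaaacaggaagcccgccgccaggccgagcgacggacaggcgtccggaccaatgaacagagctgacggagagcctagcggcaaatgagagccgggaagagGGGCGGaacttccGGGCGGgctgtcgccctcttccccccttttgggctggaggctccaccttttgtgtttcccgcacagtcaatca
TGGAAA was found in 1 of the 9 member windows, the Epb41l3 start shown, and in 21.4% of all 32851 windows. The longer tonicity-responsive enhancer consensus, every match of which contains TGGAAA, was found in 0 of the 9 and in 4.96% of all windows. GGGCGG was found in 5 of the 9, at starts of Epb41l3, Ubac2 and Sp3, and in 35.7% of all windows. These are matches of letters within a short window and do not show where a factor binds.

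Qtrt2 encodes the accessory subunit that, with Qtrt1, forms the enzyme exchanging guanine for queuine at the wobble position of certain tRNAs. It read 10.27, 10.37 and 9.53 in NFAT5-deficient HSC (arrays 64, 70 and 76), against 6.91, 7.36 and 8.03 in wild-type HSC (arrays 66, 67 and 75). In MPP it read 9.56, 9.38 and 8.55 in NFAT5-deficient cells and 7.56, 6.98 and 8.18 in wild-type cells. Array 76 was the lowest NFAT5-deficient array and array 75 the highest wild-type array in both populations. The difference was 2.62 log2 units in HSC (SE 0.42) and 1.59 in MPP (SE 0.42).

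Sp3 encodes a zinc finger transcription factor that binds GC boxes and can activate or repress. It read 9.08, 9.48 and 9.61 in NFAT5-deficient HSC, against 8.10, 9.04 and 8.03 in wild-type HSC. In MPP the values were 10.07, 9.78 and 9.87 in NFAT5-deficient cells and 8.66, 9.04 and 8.78 in wild-type cells. In HSC the groups were separated by only the gap between NFAT5-deficient array 64 and wild-type array 67, whereas in MPP all 3 NFAT5-deficient arrays were well above the wild-type ones. The difference was 1.0 in HSC and 1.08 in MPP (SE 0.29 each).

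Slc16a6 belongs to the monocarboxylate transporter family and is known in zebrafish for the export of a ketone body from the liver. It read 7.37, 9.64 and 10.78 in NFAT5-deficient HSC, against 4.25, 4.20 and 6.57 in wild-type HSC. In MPP it read 8.33, 8.31 and 7.98 in NFAT5-deficient cells and 6.21, 6.54 and 5.53 in wild-type cells. Its HSC groups were widely spread (SD 1.73 in NFAT5-deficient and 1.35 in wild-type HSC), and its NFAT5-deficient MPP group was tight (SD 0.20). The difference was 4.26 in HSC (SE 0.81) and 2.12 in MPP (SE 0.81), with the widest interval of the 8 genes. On these arrays, 17 genes listed for tissues unrelated to blood or for the Y chromosome had mean signals of 3.69 to 7.73. Signals of different probe sets cannot be ranked against each other, and without detection calls it is not known which of the lower values of the 8 genes were above background.

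Gosr1 encodes a SNARE protein of transport between endoplasmic reticulum and Golgi and within the Golgi. It read 9.78, 10.20 and 9.58 in NFAT5-deficient HSC, against 7.19, 8.42 and 8.14 in wild-type HSC. In MPP it read 9.07, 9.69 and 8.99 in NFAT5-deficient cells and 8.30, 7.61 and 7.38 in wild-type cells. Array 70 was the highest NFAT5-deficient array in both populations. The difference was 1.94 in HSC and 1.48 in MPP (SE 0.38 each).

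Ubac2 encodes a membrane protein of the endoplasmic reticulum, known in human cells to hold the degradation factor FAF2 there. Its values ran from 7.0 to 7.5 in NFAT5-deficient HSC and from 6.16 to 6.51 in wild-type HSC, and in MPP from 7.47 to 8.0 in NFAT5-deficient and from 6.14 to 6.94 in wild-type cells. The difference was 0.94 in HSC and 0.99 in MPP (SE 0.26 each). Txnrd3 encodes thioredoxin-glutathione reductase, a selenoprotein best known from testis. Its values ran from 7.35 to 7.59 in NFAT5-deficient HSC and from 6.35 to 6.80 in wild-type HSC, and in MPP from 7.08 to 7.52 in NFAT5-deficient and from 6.58 to 7.02 in wild-type cells. In MPP the Txnrd3 groups almost touched, with NFAT5-deficient array 64 (7.08) just above wild-type array 75 (7.02). The Txnrd3 difference was 0.93 in HSC and 0.49 in MPP (SE 0.20 each).

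Cyb5d1 encodes a protein with a heme-binding domain of the cytochrome b5 type. It read 9.70, 10.53 and 9.20 in NFAT5-deficient HSC, against 6.84, 7.89 and 7.40 in wild-type HSC. In MPP it read 8.28, 8.33 and 10.19 in NFAT5-deficient cells and 7.32, 5.82 and 7.49 in wild-type cells. NFAT5-deficient MPP array 76 stood above and wild-type MPP array 67 below the other arrays of their groups. The difference was 2.44 in HSC and 2.06 in MPP (SE 0.61 each).

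Epb41l3 encodes protein 4.1B, which ties membrane proteins to the actin and spectrin skeleton. It read 6.30, 6.24 and 6.64 in NFAT5-deficient HSC, against 6.04, 6.0 and 6.16 in wild-type HSC. In MPP it read 7.25, 7.65 and 7.77 in NFAT5-deficient cells and 6.44, 6.03 and 6.15 in wild-type cells. The NFAT5-deficient MPP arrays stood apart from the other 9 arrays, none of which exceeded 6.64. Whether those 9 values lay above background is not known without detection calls. The difference was 0.33 in HSC (95% confidence interval -0.08 to 0.73) and 1.35 in MPP (0.95 to 1.75). In MPP its limma adjusted p was 0.0624, the smallest of the 8 genes there, for a difference that is part of the one that chose it. The 1 gene called in MPP was Ms4a4c, a membrane protein gene that is not a member, with a log2 difference of -2.04 (adjusted p = 0.0124). That call was lost without wild-type MPP array 75 (smallest adjusted p 0.0986).

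The genes had been grouped as rising alike in HSC and MPP, and the values of Epb41l3 were the least alike relative to their spread, without passing the test. The genotype difference in HSC minus that in MPP was -1.03 for Epb41l3 (95% confidence interval -1.59 to -0.46), although its limma adjusted p over all genes was 0.999. For Slc16a6 it was 2.14 (-0.41 to 4.69) and for Qtrt2 1.04 (-0.28 to 2.36). For Gosr1 it was 0.45 (-0.72 to 1.63), for Txnrd3 0.44 (-0.19 to 1.07) and for Cyb5d1 0.38 (-1.53 to 2.30). Nearest to 0 were Ubac2 (-0.05, -0.85 to 0.75) and Sp3 (-0.08, -0.99 to 0.83). For this difference limma called 0 of 19494 genes (0%), with 817 (4.19%) below 0.05 before adjustment. It called 1 gene, never a member, without NFAT5-deficient HSC array 64 (Gbf1), without NFAT5-deficient MPP array 70 (Kdm8) and without wild-type HSC array 75 (Rpusd4). For none of the 8 genes was an equal or an unequal difference in the populations shown by the test over all genes. Likeness between the populations was part of how the genes were put together, so these values are no independent evidence of it.

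**Figure D2:**
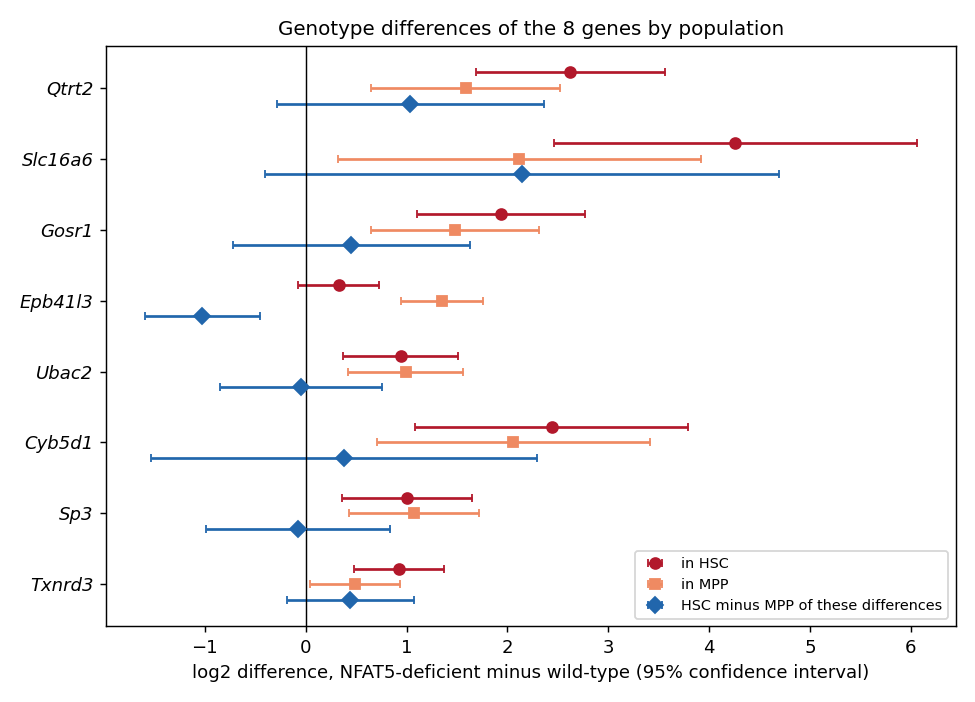
Log2 difference of NFAT5-deficient minus wild-type cells for each of the 8 genes in HSC (circles) and in MPP (squares), and the HSC difference minus the MPP difference (diamonds), with 95% confidence intervals from limma. The interval of the last quantity leaves out 0 for Epb41l3 (-1.59 to -0.46) and spans it for the other 7 genes.

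The difference between HSC and MPP, averaged over genotypes, is independent of the averaged genotype difference in this balanced design only as an estimate. The p-values of both use the same spread, and the order by p favours genes with small spread. For the averaged HSC and MPP difference, limma called 0 of the 8 genes, whereas 119 of 19494 genes (0.61%) were called. Epb41l3 came nearest, lower in HSC by a log2 value of -0.65 (SE 0.13, adjusted p = 0.0602). Sp3 (-0.48, SE 0.21, adjusted p = 0.393) and Ubac2 (-0.41, SE 0.18, adjusted p = 0.406) also read lower in HSC. Cyb5d1 (0.69), Gosr1 (0.38) and Qtrt2 (0.38) read higher in HSC, and Txnrd3 (-0.06) and Slc16a6 (-0.02) were near 0, with adjusted p of 0.551 to 0.994. By this comparison the 8 genes had no common direction, with 3 higher and 5 lower and a median of -0.04, beside a median of 0.06 over all genes. The Epb41l3 value passed without NFAT5-deficient MPP array 64 (-0.73, adjusted p = 0.0445).

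Within NFAT5-deficient cells, Epb41l3 read lower in HSC (mean 6.39) than in MPP (mean 7.56), with all 3 HSC arrays below all 3 MPP arrays. The log2 difference was -1.16 (SE 0.18, limma adjusted p = 0.0474). Wild-type means of Epb41l3 were 6.07 in HSC and 6.20 in MPP, both below the NFAT5-deficient HSC mean. Epb41l3 was the 1 member called within NFAT5-deficient cells, beside 41 of 19494 genes (0.21%), of which 23 (0.118%) were lower in HSC. The call held without wild-type MPP array 66 (adjusted p = 0.0478) and was lost on leaving out any of the other 11 arrays, with adjusted p up to 0.159 and differences of -1.32 to -1.06. In wild-type cells the Epb41l3 difference was -0.14 (95% confidence interval -0.54 to 0.26), and 0 of the 8 genes were called (32 genes or 0.164% overall). Sp3 also had all 3 HSC arrays below all 3 MPP arrays in NFAT5-deficient cells, with a difference of -0.52 (SE 0.29, adjusted p = 0.70). Such separation in either direction was found for 16.9% of genes in NFAT5-deficient cells and 12.3% in wild-type cells. In wild-type cells the HSC and MPP arrays overlapped for each of the 8.

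**Figure D3:**
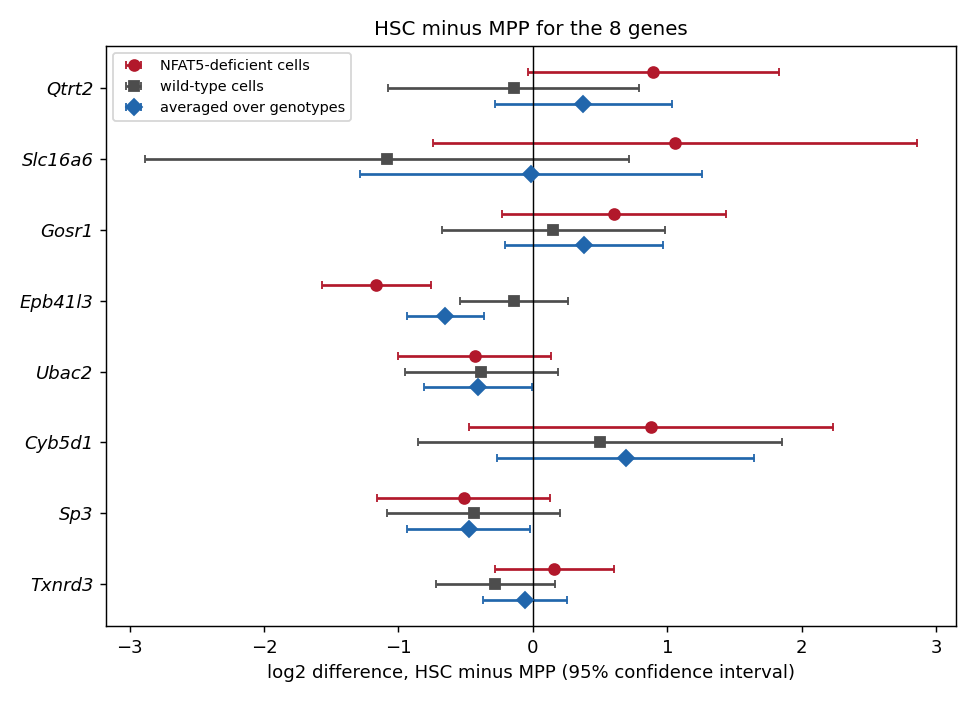
Log2 difference of HSC minus MPP for each of the 8 genes in NFAT5-deficient cells (circles), in wild-type cells (squares) and averaged over genotypes (diamonds), with 95% confidence intervals from limma. Epb41l3 in NFAT5-deficient cells (-1.16) is the one value past the test over all genes.

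In the order of group means, both NFAT5-deficient groups stood above both wild-type groups for every gene. The choice of the genes favours this order, so it is no test. Within a genotype the HSC and MPP groups overlapped for all members except Epb41l3 and Sp3 in NFAT5-deficient cells, so their order was otherwise within the spread of the arrays. Within groups the correlations among the 8 genes had both signs. Over the 12 arrays, after removing group means, the 28 pairs of members correlated at -0.749 (Sp3 with Txnrd3) to 0.566 (Cyb5d1 with Txnrd3), with a median of 0.0856 and 17 pairs above 0. After the same removal, Nfat5 correlated with the members at -0.545 (Slc16a6) to 0.258 (Ubac2). These values are descriptions over 12 arrays that share their amplification and normalization. Pairs of other genes were not examined, so it is not known whether the members vary together more or less than others.

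The genes with the profile most like the mean of the 8 over the 12 arrays were Ccrl2, a chemerin-binding receptor gene (Pearson r of 0.882), Nrbp1 (0.853), Atp5j2, which encodes a subunit of ATP synthase (0.848), Dguok, the mitochondrial deoxyguanosine kinase gene (0.84), Mbnl1, a splicing regulator gene (0.84), and Ranbp9 (0.83). Each member against the mean of the other 7 gave 0.624 (Epb41l3) to 0.88 (Gosr1). Ccrl2 averaged 6.71 in NFAT5-deficient HSC and 5.75 in wild-type HSC, and in MPP 6.80 in NFAT5-deficient and 5.85 in wild-type cells. Its genotype difference was nearly the same in both populations (0.96 in HSC and 0.95 in MPP, SE 0.28 each, adjusted p of 0.772 and 0.871). These likenesses follow in large part from the genotype difference that chose the members.

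In HSC, mature neutrophil genes read higher on average on wild-type arrays 66 and 67 but not 75, opposite in direction to the 8 genes and without passing the test. The mean log2 intensity of 9 such genes (all 9 listed were measured) was 5.42, 5.53 and 5.51 on NFAT5-deficient HSC arrays 64, 70 and 76, against 6.88, 7.38 and 5.52 on wild-type HSC arrays 66, 67 and 75. In MPP it was 6.49, 6.62 and 6.02 in NFAT5-deficient cells and 6.94, 7.02 and 5.96 in wild-type cells. In HSC 8 of the 9 had a lower value in NFAT5-deficient cells (median difference -0.92), and in MPP also 8 of 9 (median -0.11). The medians over all genes were -0.05 in HSC and -0.07 in MPP. Most genes read lower in the averaged comparison, where 7360 of 19494 read higher. limma called 0 of the 9 neutrophil genes in either population. S100a9, an abundant calcium-binding protein gene of neutrophils, had the largest difference of the 9 in HSC. It averaged 6.04 ± 0.58 in NFAT5-deficient HSC and 9.16 ± 2.43 in wild-type HSC (SD, n = 3 each). In MPP it averaged 9.19 ± 0.28 in NFAT5-deficient and 9.50 ± 1.18 in wild-type cells (SD, n = 3 each). The HSC differences of Retnlg (-0.09), Lcn2 (-0.07) and Mmp9 (0.03) were near 0. Without wild-type HSC arrays 66 and 67, which leaves 1 wild-type HSC array, the differences of the 8 genes in HSC ran from 0.23 to 2.69, and that of Slc16a6 was 2.69 in place of 4.26. The genotype difference in HSC minus that in MPP was then 0.58 for Slc16a6, in place of 2.14, and 0.44 for Qtrt2, in place of 1.04. In the averaged comparison 13 genes were then called, and 0 of the 8 were among them. Because the 8 genes were chosen for being higher in NFAT5-deficient cells, the sign of these values is no test, and the part of neutrophil RNA in them was not tested.

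**Figure D4:**
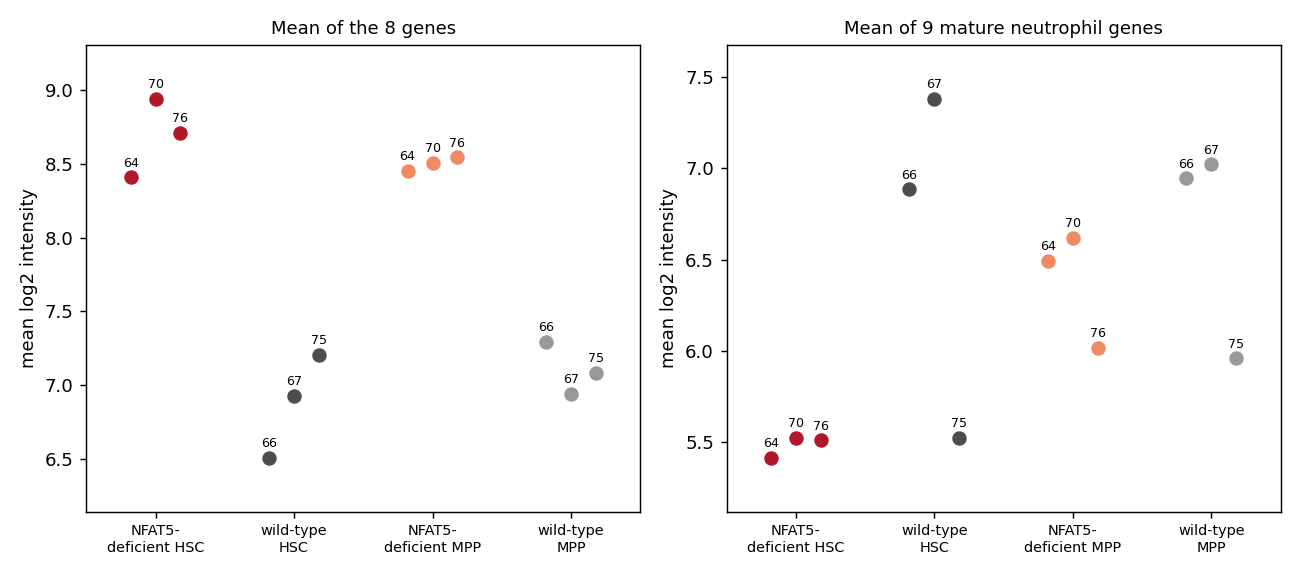
Mean log2 intensity per array of the 8 genes (left) and of 9 mature neutrophil genes (right), by group, with array numbers beside the points. In wild-type HSC the neutrophil mean is 6.88 and 7.38 on arrays 66 and 67 and 5.52 on array 75, and the mean of the 8 genes is 6.51, 6.93 and 7.21 on arrays 66, 67 and 75.

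Differences of the relatives of the 8 genes centred near 0. Across 9 related lists, limma called 0 members in the averaged genotype comparison, and list medians ran from -0.12 to 0.16, beside -0.06 for all genes. Of all 19494 genes, 7360 read higher, so fewer than 1 in 2 is the background for the counts of each list, and nothing is read from them. Values are given for the 2 genes of each list with the smallest p, none of which passed. Of 10 measured genes of tRNA queuosine and wobble modification, 6 read higher (median 0.16), with the methyltransferase gene Alkbh8 at 0.33 and the Elongator subunit gene Elp3 at 0.49. Of 7 other Sp factors 2 read higher (median -0.07), with Sp9 at -0.20 and Sp7, a bone regulator gene, at -0.11. Of 14 Slc16 transporters and their chaperones 7 read higher (median -0.03), with the creatine transporter gene Slc16a12 at -0.47 and the aromatic amino acid transporter gene Slc16a10 at 0.72.

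Among 12 Golgi SNAREs and partners 6 read higher (median 0.06), with Napa, a cofactor in SNARE disassembly, at -0.51 (SE 0.16) and Stx6, an endosomal syntaxin gene, at -1.20 (SE 0.58). Among 11 genes of endoplasmic reticulum degradation 4 read higher (median -0.05), with Sel1l, the adaptor of a ubiquitin ligase, at -0.99 (SE 0.37) and Derl3 at -0.27. Among 7 genes of the protein 4.1 family and partners 2 read higher (median -0.12), with Epb41l1 at -0.14 and Cadm1, an adhesion molecule bound by protein 4.1B, at 0.36.

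Among 12 thioredoxin system genes 7 read higher (median 0.12), with Txnip, an inhibitor of thioredoxin, at 0.36 and the cytosolic reductase gene Txnrd1 at 0.34. Among 10 cytochrome b5 domain and reductase genes 7 read higher (median 0.09), with Cyb5r2 at -0.49 (SE 0.14) and Cyb5d2 at -0.33. Among 8 osmotic stress targets of NFAT5 2 read higher (median -0.08, beside -0.06 over all genes). The heat shock gene Hspa1b was at -0.30 and the betaine transporter gene Slc6a12 at -0.27. Between HSC and MPP averaged over genotypes, 1 gene of the 9 lists was called: Emb, which encodes embigin, a chaperone of monocarboxylate transporters, was lower in HSC, with a log2 difference of -1.41 and a limma adjusted p of 0.0412.

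**Figure D5:**
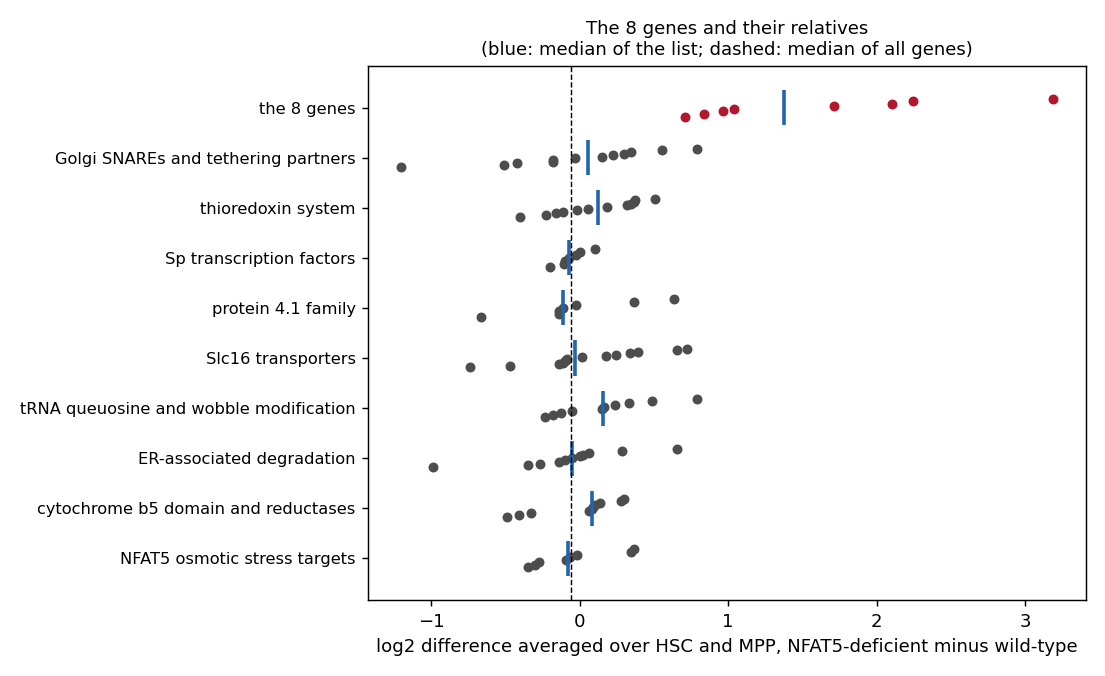
Log2 difference averaged over HSC and MPP (NFAT5-deficient minus wild-type, horizontal axis) for the 8 genes and for the measured genes of 9 related lists; each point is a gene, blue bars are list medians and the dashed line is the median of all genes (-0.06). The 8 genes lie between 0.71 and 3.19, and the list medians between -0.12 and 0.16.

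The genes next to the 8 in the RefSeq order had differences of either sign. Slc16a6, Gosr1 and Cyb5d1 lie on chromosome 11 and the other 5 on chromosomes 2, 6, 14, 16 and 17, whereas Nfat5 lies on chromosome 8. Of 19 measured genes that flank or overlap a member, 7 had a higher and 12 a lower averaged genotype difference (median -0.09). Over all genes, 7360 of 19494 read higher and the median was -0.06. Of the 19 neighbours, 1 (Vmn1r40, a vomeronasal receptor gene beside Txnrd3, at -0.22) lay below 0.05 before adjustment and 0 were called, beside 7.11% and 0% of all genes. Arsg, which overlaps Slc16a6, was at -0.19 (SE 0.13), and Naa38, the right neighbour of Cyb5d1, at 0.12 (SE 0.16). Gpr18 and Gpr183, receptor genes that overlap Ubac2 in the annotation, were at 0.47 (SE 0.36) and -0.36 (SE 0.18). The deposited files do not state on which strand or exon each probe set lies.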

How the data were processed

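The authors deposited 1 table of log2 intensities for 22142 probe sets on 12 arrays that ran from 2.51 to 13.28, from which the scale was read. RMA and limma are named, per the submitters' processing notes, with neither version nor role. No genome build was given, and scanner files and detection calls were not used here. The platform annotation gave 19527 probe sets 1 symbol, 0 several and 2615 none. Where 33 genes had several probe sets the brightest was kept, leaving 19494 genes. The members and gene lists were chosen with earlier results of these data known.

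limma 3.58.1 (R 4.3.3) was fitted on the deposited values with 4 group means and eBayes with its intensity trend. Benjamini-Hochberg adjustment ran over all genes, and called means an adjusted p under 0.05. Genes named besides the members were the 6 following them by p among higher genes, the 6 most alike in profile, the 2 with the smallest p in each related list, and up to 3 per list called between HSC and MPP. The gene called in MPP was added because a count of 1 calls for its name. The fit was run on simulated data to check that its mean estimates recovered planted differences. Simulated arrays were independent, so any sharing of animals by same-numbered arrays was not covered. HSC and MPP arrays with the same number did not deviate together when all genes were pooled (r of -0.014 to 0.064). Such a pooled value cannot show whether single genes vary together by number. The number was used as a block only as an alternative. Other settings varied were a dim-gene filter, the variance prior, normalization, array weights, probe set handling, the arrays fitted, and leaving out each array. Leaving out wild-type HSC arrays 66 and 67 together was added after seeing the data. For arrays, their number limits the precision. Promoter sequences came from RefSeq (GRCm38.p6). Figures were drawn with Python 3.11.15 and matplotlib 3.10.9.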

Additional observations from a re-analysis of the deposited data

How the results depend on the processing

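All 8 genes kept a higher value in NFAT5-deficient cells in the averaged, HSC and MPP comparisons under each setting run for them and without any one array. The genes were chosen for this rise, and the genotypes did not overlap in either population. Leaving out an array could therefore not reverse a sign, and these signs are no test. The fixed replicate block was not run for these comparisons, since each number belongs to 1 genotype. The fit of only the groups compared was not run for the averaged one. Epb41l3 was called in MPP after median centring (1.40, adjusted p = 0.0323) and with array weights (1.40, 0.0383), and between HSC and MPP averaged over genotypes without dim genes (adjusted p = 0.0408), with quantile normalization (0.0338), median centring (0.0288) and the random replicate block (0.0486). Its call within NFAT5-deficient cells was lost over all probe sets (0.0524), with the fixed replicate block (0.179) and without wild-type HSC arrays 66 and 67 (0.0876).

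Without any one array, genes called ran from 0 to 2 in the averaged genotype comparison, 0 to 3 in HSC, 0 to 4 in MPP, 0 to 1 for the difference of these, 71 to 112 for HSC minus MPP averaged over genotypes, 5 to 32 in NFAT5-deficient and 11 to 30 in wild-type cells. In MPP, 2 genes were called with quantile normalization, 3 with median centring, 6 with array weights and 0 with only its 6 arrays fitted. HSC minus MPP in NFAT5-deficient cells gave 23 calls with robust eBayes, 23 with quantile normalization and 22 over all probe sets. The replicate block, random, gave 1 call for the difference between populations; fixed, it gave 52 calls for HSC minus MPP averaged, 3 in NFAT5-deficient and 5 in wild-type cells. Same-numbered arrays correlated at 0.0454 in that random block. Without wild-type HSC arrays 66 and 67 the counts were 13 averaged, 30 in HSC, 0 in MPP, 9 for the difference and 60 between wild-type HSC and MPP. The lone array is then assumed to vary like the other groups, and no cause of these shifts was tested.

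Small uncalled values changed sign. The Ubac2 difference between populations was 0.027 with quantile normalization and -0.19 to 0.21 without single arrays, and that of Sp3 -0.26 to 0.25. HSC minus MPP ran from -0.41 to 0.46 for Slc16a6 averaged, and in wild-type cells from -0.44 to 0.16 for Qtrt2, -0.10 to 0.52 for Gosr1 and -0.03 to 0.80 for Cyb5d1. Without wild-type HSC arrays 66 and 67 the Sp3 difference between populations was 0.29, HSC minus MPP averaged was 0.77 for Slc16a6 and 0.0506 for Txnrd3, and in wild-type cells it was 0.46 for Qtrt2 and 0.48 for Slc16a6.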
